A study of Mus musculus with 12 samples.

Results

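The genes described are 9 genes of the later steps of glycolysis, from aldolase to pyruvate kinase: Aldoa, Aldoc, Tpi1, Gapdh, Pgk1, Pgam1, Eno1, Eno2 and Pkm. They were taken as the rows of the count table whose symbol, looked up from the Ensembl identifier, is one of these names, and they are 9 of its 37681 genes. RNA of kidney cortex was sequenced from male mice, 18 months old, of the C57BL/6 strain. The TG+ group carried the TRACK transgene (GGT-HIF1aM3, also written γ-HIF1αM3), which encodes a constitutively active mutant HIF1α and is expressed in the proximal tubules, and the TG− group was wild-type littermates that lacked it. Each group held 3 mice (TG+ 43-29, 43-49 and 43-75, TG− 43-26, 43-50 and 43-76), with 1 library from each of the 2 kidneys of a mouse. The cortex was taken as a thin outer slice of the whole tissue, so all its cell types are in each library, and the labels do not say whether the TG+ mice descend from 1 founder.

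Aldolase splits fructose-1,6-bisphosphate into a pair of 3-carbon sugars, triose phosphate isomerase interconverts them, and GAPDH, phosphoglycerate kinase, phosphoglycerate mutase, enolase and pyruvate kinase then carry the product to pyruvate with a gain of ATP. Most of these enzymes come as isozymes from separate genes, with forms used widely and forms typical of liver, muscle, brain or testis. The transcription factor HIF1α is known to switch on many genes of this pathway at low oxygen, by binding DNA elements with the core ACGTG or GCGTG. In the proximal tubule the reversible steps also run backwards, towards glucose.

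The promoters show how often that core occurs near these genes. The 250 bases before each start that RefSeq lists (GRCm38.p6) were searched for ACGTG and GCGTG on both strands. A copy of CACGTG would count on each strand, and no printed window holds one. Of 15 windows of the 9 members, 11 held a match, and 7 of the 9 members had a match at any of their starts. Windows of nearby starts overlap, so that in Aldoa a pair of windows share 1 match and in Eno1 a pair share 2. Over all genes, 38.6% of 32851 windows held one, and 41.5% of 27025 genes at any start. Tpi1 and Eno2 were the members with none. Among the other isozymes of these steps, 1 of 7 with a window had a match, namely Eno3, and the windows of Pklr had none. The following are the 5 member windows that overlap no exon of the GENCODE M21 annotation, 5′ to 3′ on the strand of the gene, with the matches in capitals (CACGT and CACGC are the cores read on the opposite strand). They are chr7:126799255-126799504 (minus strand, the second of 3 starts of Aldoa), chr6:125165774-125166023 (minus strand), chrX:106186850-106187099 (plus strand), chr19:41911621-41911870 (plus strand) and chr4:150236458-150236707 (plus strand, the first of 3 starts of Eno1).
Aldoa: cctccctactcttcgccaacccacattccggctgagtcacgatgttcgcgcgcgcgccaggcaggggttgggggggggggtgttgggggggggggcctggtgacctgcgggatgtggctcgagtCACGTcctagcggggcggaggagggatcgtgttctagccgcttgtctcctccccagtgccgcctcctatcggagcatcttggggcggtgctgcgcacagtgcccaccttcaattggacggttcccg
Gapdh: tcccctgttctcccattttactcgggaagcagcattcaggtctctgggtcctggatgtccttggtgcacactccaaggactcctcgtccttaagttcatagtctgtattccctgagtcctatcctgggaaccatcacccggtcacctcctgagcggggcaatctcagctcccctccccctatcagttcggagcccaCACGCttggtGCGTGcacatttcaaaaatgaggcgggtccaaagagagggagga
Pgk1: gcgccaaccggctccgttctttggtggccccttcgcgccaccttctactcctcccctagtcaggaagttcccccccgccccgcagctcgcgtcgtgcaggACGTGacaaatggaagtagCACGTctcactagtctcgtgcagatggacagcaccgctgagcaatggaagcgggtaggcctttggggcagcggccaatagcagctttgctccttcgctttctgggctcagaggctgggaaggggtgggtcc
Pgam1: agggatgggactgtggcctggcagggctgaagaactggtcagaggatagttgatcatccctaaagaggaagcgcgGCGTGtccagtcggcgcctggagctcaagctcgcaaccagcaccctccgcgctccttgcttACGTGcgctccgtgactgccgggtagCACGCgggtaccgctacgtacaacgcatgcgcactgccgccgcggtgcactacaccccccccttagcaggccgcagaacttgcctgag
Eno1: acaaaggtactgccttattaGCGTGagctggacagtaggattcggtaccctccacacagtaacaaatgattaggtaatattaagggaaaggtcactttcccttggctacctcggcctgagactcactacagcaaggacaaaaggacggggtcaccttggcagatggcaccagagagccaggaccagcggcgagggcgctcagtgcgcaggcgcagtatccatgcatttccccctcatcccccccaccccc
Pgk1 held 2 copies of ACGTG, 150 and 131 bases before its start and on opposite strands. The printed windows held 3 matches in Pgam1, 2 copies of GCGTG in Gapdh, and 1 match each in Aldoa and Eno1, and the windows of the other Eno1 starts held 2 further matches, in annotated exons. In Aldoc and Pkm the matches (GCGTG 50 bases before the first and 39 before the second start of Aldoc, and ACGTG 75 bases before the second start of Pkm) lie in bases annotated as exon, so those windows are not shown. A match describes these letters only, and binding was not measured.

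Libraries held 21888584 to 33704850 reads on genes, and the 2 kidneys of each mouse were summed, which gave 48052131 to 60506785 reads per mouse. Levels are given as normalized CPM, read counts relative to a library size that was scaled by edgeR's TMM factors, and differences as the log2 of TG+ over TG−. The adjusted p is from edgeR's quasi-likelihood test over 19399 genes with Benjamini-Hochberg adjustment. A gene is said to have risen or fallen at an adjusted p below 0.05, and the 2-fold threshold adds a limit of 0.01 on the adjusted p and a fold change above 2 or below 0.5. An exact permutation test of 3 against 3 mice cannot give a 2-sided p below 0.1. The kidneys of a mouse are separate samples, but nothing in the labels says that they were handled apart, so differences between them may be technical, and the p-values measure the spread between these mice. The Hif1a row, at 86.3 to 109 CPM in TG+ and 103 to 107 in TG− mice, did not separate the genotypes (log2 -0.12, SE 0.09, adjusted p = 0.343 by edgeR), and whether it counts transgene reads is not given in the sources used here.

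All 9 members were tested. In TG+ kidney cortex 8 of the 9 rose, against 15.4% of all genes tested, and 0 fell, against 10.9%. At the 2-fold threshold 5 were higher (Pkm, Aldoc, Eno1, Pgk1 and Pgam1), against 3.77% of all genes, and 0 were lower, against 0.211%. In the same 8 genes every TG+ mouse lay above every TG− mouse, which was so for 23.4% of all genes. The exception was Eno2, the least abundant member. The median log2 difference of the members was 1.31, a 2.48-fold rise, and that of all genes was 0.01. Among the TG+ mice, 43-29 had the highest level of all 9 members, and 43-49 the lowest of 8 of them. In bulk tissue, fewer cells of a type and less RNA per cell cannot be told apart.

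**Figure D1:**
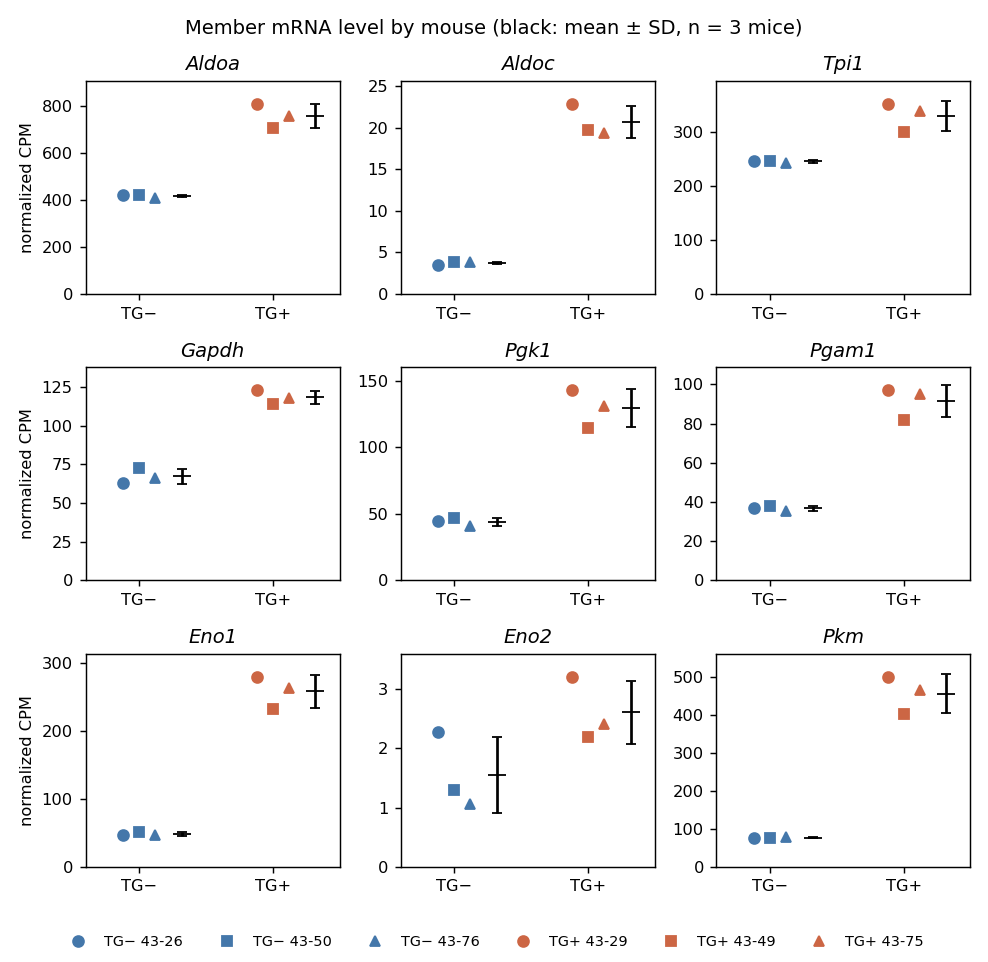
Normalized CPM of each member (vertical axis, from 0) in the 3 TG− and 3 TG+ mice, with the mean ± SD beside them. In 8 panels every TG+ mouse stands above every TG− mouse, and in Eno2 the TG− mouse 43-26 lies above the TG+ mouse 43-49.

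Aldolase opens the series. Aldoa (ENSMUSG00000030695, chromosome 7 from 126795234 to 126800751, GRCm38) encodes the muscle and widespread form. It stood at 811, 710 and 759 CPM in the TG+ mice (43-29, 43-49 and 43-75, the order used throughout) and 421, 421 and 411 CPM in the TG− mice (43-26, 43-50 and 43-76). The TG− mice lay close together, and every TG+ mouse lay far above them. The rise was 0.86 (SE 0.06, adjusted p = 1.09e-04, edgeR), short of 2-fold. The gene overlaps Fam57b, and strand handling is not given in the sources used here, so reads of the overlap cannot be assigned.

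Aldoc (ENSMUSG00000017390, chromosome 11 from 78322968 to 78327781), the form best known from brain, was a minor transcript with a large relative rise. Its level was 22.9, 19.8 and 19.4 CPM in TG+ and 3.53, 3.80 and 3.83 CPM in TG− mice. The groups were wide apart, at 2.47 on the log2 scale (SE 0.09, adjusted p = 5.19e-06, edgeR), a 5.56-fold difference. The kidneys of one mouse differed by at most 0.25 on the log2 scale, in 43-49.

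For the later enzymes, isozyme shares were computed per mouse. A share is an isozyme's reads per base of gene length over the sum for its enzyme. The length behind the authors' RPKM values was recovered from the table and served as the main length. It is often nearer to the sum of all transcripts of a gene than to its merged exons. Among genes with 6 or more transcripts it was in the median 0.93 times the transcript sum and 2.05 times the merged exons. Among the same genes it was within 1% of the merged exons for 0.4% of genes and within 1% of the transcript sum for 23.3%. Members differed in this, with 10277 bases for Eno1 against 5379 of merged exons, but 4413 for Pkm against 5001 and 1831 for Pgam1 against 1982. Shares by merged exons of GENCODE M21 are given beside it.

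Each share that could differ was set against genotype by a 2-sided exact permutation test over mice. In all 10 shares of GAPDH, the mutase, enolase and pyruvate kinase, the TG+ and TG− mice did not overlap. Each exact permutation test therefore gave p = 0.1, the smallest value possible, which stayed 0.1 after Benjamini-Hochberg adjustment over the 10, and none could pass 0.05. The shares of an enzyme add up to 100%, so they are not independent.

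**Figure D2:**
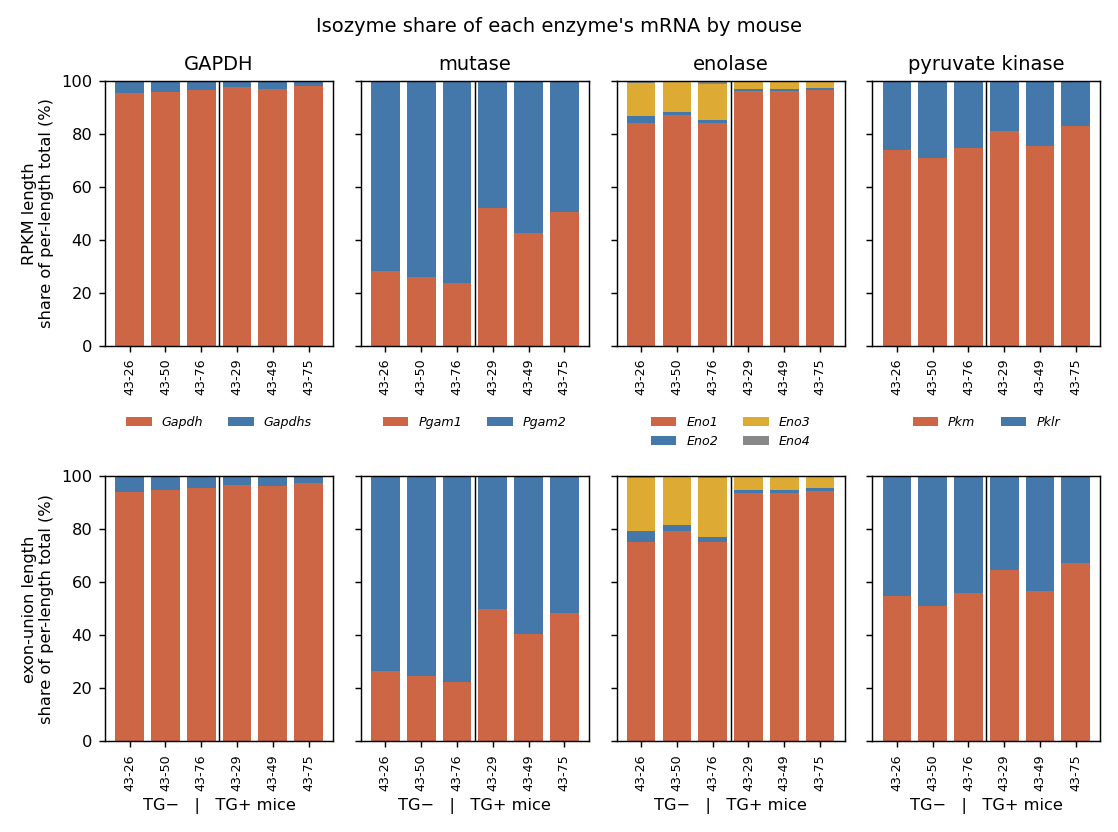
Isozyme shares in percent of each enzyme's per-length mRNA (vertical axis) in each mouse, TG− to the left and TG+ to the right of the line, with the RPKM lengths above and merged exon (exon-union) lengths below. The Pgam1 part is 48.3% of mutase in TG+ and 26.0% in TG−, while GAPDH is mostly Gapdh in every mouse.

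Tpi1 (ENSMUSG00000023456, chromosome 6 from 124810586 to 124814296) encodes triose phosphate isomerase, which has no second gene among those listed here. Its level was 352, 299 and 339 CPM in TG+ and 246, 247 and 243 CPM in TG− mice. The groups did not overlap, but the log2 difference was the smallest of the 8 members that rose. The difference was 0.43 (SE 0.07, adjusted p = 0.00388, edgeR), or 1.35-fold. Tpi1 overlaps Spsb2, and with Eno2 and Gapdh it lies within 406 kb of chromosome 6.

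Gapdh (ENSMUSG00000057666, chromosome 6 from 125161715 to 125166467) encodes glyceraldehyde-3-phosphate dehydrogenase, the step that makes NADH. Its row held 123, 114 and 118 CPM in TG+ and 62.8, 72.6 and 66.3 CPM in TG− mice. The rise was 0.82 (SE 0.07, adjusted p = 2.05e-04, edgeR), or 1.76-fold, with no overlap between groups. This often used reference transcript was thus not constant between the genotypes. Gapdhs, the sperm form, stood at 1.51 ± 0.257 CPM in TG+ and 1.42 ± 0.181 in TG− (SD, n = 3), with a difference of 0.09 (SE 0.19, adjusted p = 0.772, edgeR). Gapdh made up 97.5% ± 0.456 of GAPDH mRNA in TG+ and 96.0% ± 0.548 in TG−, and 96.8% against 94.9% by merged exons. The difference of 1.56 points was 0.811 without length correction and 0.0869 with the near-identical rows described next added.

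The level of the Gapdh row is uncertain. Of the 51-base stretches in Gapdh transcripts, as long as the reads, 1151 of 4608 also occur in other genes. Among the other genes with counts, 43 share at least 100 such stretches with Gapdh. Their rows together held 542386 reads over the 12 libraries and Gapdh 29080, and 5 of them each held more than Gapdh itself, the highest being Gm14760 with 35803. Gm13394, which shares 899 stretches against 898 of Gm14760, held 35802, while Gm7336, which shares 1129, held 10814. Whether 1 read was counted in several rows is not given in the sources used here. Of the 43 rows, 42 were tested and all 42 rose, by 0.74 to 0.93 on the log2 scale. With their reads added to Gapdh, an alternative chosen after seeing the data, the rise was 0.84 (SE 0.07, adjusted p = 1.97e-04, edgeR). The genotype difference was thus similar in either count.

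**Figure D3:**
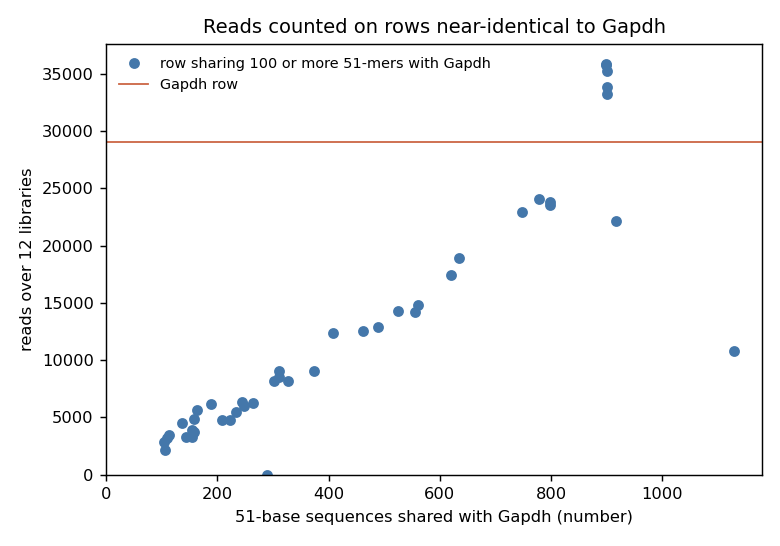
Reads over the 12 libraries (vertical axis) of the 43 rows that share 100 or more 51-base sequences with Gapdh, against the number shared (horizontal axis), with the Gapdh row at 29080 reads as a line. The 5 rows above the line share 898 to 901 sequences with Gapdh.

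Pgk1 (ENSMUSG00000062070, chromosome X from 106187100 to 106203699) encodes phosphoglycerate kinase, which forms the first ATP of the pathway. It reached 143, 115 and 131 CPM in TG+ and 44.3, 46.6 and 40.9 CPM in TG− mice. Each TG+ mouse was more than double any TG− mouse, and the difference was 1.56 (SE 0.09, adjusted p = 3.59e-05, edgeR). Pgk2, the form of sperm, had 0 reads in all 12 libraries, which allows up to 3 reads per mouse, or 0.0624 CPM in the shallowest mouse. Pgk1 was thus the only isozyme detected. Of its 51-base stretches, 53.8% occur in other genes, chiefly Pgk1-rs7 and Gm5537, which held 20329 reads together against 27066 on Pgk1. Those rows rose by 1.59 and 1.60, and with them added the difference was 1.58 (SE 0.10).

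Pgam1 (ENSMUSG00000011752, chromosome 19 from 41911923 to 41918660) encodes the mutase of brain and most tissues, and Pgam2 that of muscle. Pgam1 was measured at 97.0, 81.9 and 95.3 CPM in TG+ and 36.8, 38.2 and 35.5 CPM in TG− mice. With groups well apart, it rose by 1.31 (SE 0.08, adjusted p = 3.35e-05, edgeR). Pgam2 stood at 41.1, 50.9 and 43.1 CPM in TG+ and 43.1, 49.6 and 52.7 CPM in TG− mice. Its groups overlapped, at -0.11 (SE 0.10, adjusted p = 0.488, edgeR), a sign that turned to 0.02 when libraries were scaled by size alone. Bpgm, whose enzyme makes 2,3-bisphosphoglycerate in red cells, stood at 52.2 ± 2.55 and 52.5 ± 3.15 CPM (SD, n = 3, adjusted p = 0.936, edgeR).

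In percentage points, the shares of the mutase differed most between the genotypes, while the Pgam2 level did not differ detectably. In log2 difference, Eno1 and Eno3 lay further apart (2.42 and 0.05) than Pgam1 and Pgam2 (1.31 and -0.11). Pgam1 was 52.0, 42.5 and 50.4% of mutase mRNA in TG+ and 28.2, 26.1 and 23.6% in TG− mice, a difference of 22.3 percentage points. By merged exons the difference was 21.9 points. The Pgam2 form held most of the mutase mRNA in every TG− mouse, and the forms were near equal in 2 of the TG+ mice. The summed mutase level was 103 ± 1.71 CPM per kb in TG+ and 77.8 ± 5.66 in TG− (SD, n = 3, RPKM lengths), a ratio of 1.33. Pgam1 shares 36.1% of its 51-base stretches with other genes, and 2342 reads lay on 2 near-identical rows against 20031 on Pgam1.

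Eno1 (ENSMUSG00000063524, chromosome 4 from 150236721 to 150248879) encodes alpha enolase, the widespread form, Eno2 the form of neurons and Eno3 that of muscle. Eno1 stood at 280, 232 and 264 CPM in TG+ and 46.7, 51.4 and 46.8 CPM in TG− mice. The lowest TG+ mouse was over 4 times the highest TG− mouse, and the difference was 2.42 (SE 0.08, adjusted p = 4.01e-06, edgeR), or 5.35-fold. Its near-copies Eno1b and Gm4735, to which 51-base reads of Eno1 may also match, held 101973 reads together against 47846 on Eno1. Eno1b rose by 2.42 as well (SE 0.10, adjusted p = 6.31e-06, edgeR), and with both rows added to Eno1 the difference was 2.44.

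Eno2 (ENSMUSG00000004267, chromosome 6 from 124760053 to 124769673) was the member at the lowest level and the one that did not pass. It was measured at 3.21, 2.20 and 2.41 CPM in TG+ and 2.28, 1.30 and 1.06 CPM in TG− mice. The TG− mouse 43-26 lay above the TG+ mouse 43-49, and the kidneys of 43-26 differed by 0.45 on the log2 scale, the most for any member and mouse. The difference was 0.75 (SE 0.29, adjusted p = 0.0946, edgeR; p = 0.2 in the 2-sided exact permutation test). It passed in 3 of 15 alternatives. Among them were the fit without mouse 43-26 (1.14, SE 0.23, adjusted p = 0.0149, edgeR) and that with each kidney as its own library (0.76, adjusted p = 0.0114, edgeR). The latter treats the 2 kidneys of a mouse as independent, although they come from 1 animal. With any other mouse left out Eno2 did not pass. The difference then ran from 0.55 without 43-76 (adjusted p = 0.242, edgeR) to 0.86 without 43-49 (adjusted p = 0.0999, edgeR). Of 7 neuron and neuroendocrine markers, Syp stood at 7.79 ± 1.14 CPM in TG+ and 6.98 ± 0.660 in TG− and Nefl at 1.20 ± 0.584 and 1.31 ± 0.220 (SD, n = 3), while the other 5 had 0 (Th) to 56 reads over the 12 libraries. The sum of all 7 was 8.21 to 11.5 CPM in TG+ and 7.80 to 9.25 in TG− mice, and the part of such cells in the Eno2 level was not tested.

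Eno3 stood at 4.24 ± 0.482 CPM in TG+ and 4.09 ± 0.369 in TG− (SD, n = 3, adjusted p = 0.804, edgeR), and Eno4, a sperm form, at or under 0.264 CPM in every mouse. Eno1 made up 96.4, 96.3 and 96.8% of enolase mRNA in TG+ and 84.3, 87.2 and 84.0% in TG− mice, a difference of 11.4 percentage points. By merged exons the difference was 17.5 points (94.0% ± 0.485 against 76.5% ± 2.46), and with the near-identical rows added 4.24 points. The share of Eno3 was 2.75% ± 0.245 in TG+ and 12.5% ± 1.46 in TG−, while its level did not differ detectably. The Eno3 share was 4.78% against 20.1% by merged exons and 0.896% against 4.53% with the near-identical rows added. Eno2 held 0.569% ± 0.0708 in TG+ and 1.61% ± 0.702 in TG−, so its share was lower in TG+ where its level was not. By merged exons it was 1.08% against 2.81%, and the difference of -1.04 points became -0.636 without mouse 43-26, -1.89 without length correction and -0.397 with the near-identical rows added. Of 7 skeletal muscle markers, Acta1 stood at 3.64 ± 0.249 CPM in TG+ and 3.13 ± 1.13 in TG− and Mylpf at 0.499 ± 0.0566 and 0.542 ± 0.0916 (SD, n = 3), while the other 5 had 7 to 48 reads over the 12 libraries. The sum of the 7 was 4.24 to 4.45 CPM in TG+ and 2.97 to 6.98 in TG− mice, and its part in Eno3 and Pgam2 was not tested.

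Pkm (ENSMUSG00000032294, chromosome 9 from 59656368 to 59679375) encodes the muscle-type pyruvate kinases M1 and M2, which differ by an alternative exon, and Pklr the liver and red cell type. The counts are per gene and do not separate M1 from M2. Pkm had the largest fold change of the members. It stood at 500, 401 and 466 CPM in TG+ and 76.3, 75.4 and 79.1 CPM in TG− mice. The TG− mice were nearly equal, and every TG+ mouse was over 5 times as high. The difference was 2.57 (SE 0.09, adjusted p = 3.50e-06, edgeR), or 5.92-fold. Of its 51-base stretches 25.4% occur in other genes, but no row of the table shares 100 or more.

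Pklr rose too. It was at 177, 198 and 147 CPM in TG+ and 40.6, 46.7 and 40.3 CPM in TG− mice, a difference of 2.03 (SE 0.12, adjusted p = 3.33e-05, edgeR). Its highest TG+ mouse was 43-49, in which 8 of the 9 members were lowest. Pklr overlaps Hcn3, with which it shares 20.5% of its 51-base stretches. Since both isozymes rose, the change in their shares was smaller, in percentage points, than that of the mutase. Pkm was 81.1, 75.5 and 82.9% of pyruvate kinase mRNA in TG+ and 74.1, 71.1 and 74.9% in TG− mice. The difference was 6.45 percentage points, or 8.88 by merged exons (62.8% ± 5.50 against 54.0% ± 2.56, SD, n = 3). The lowest TG+ mouse lay close to the highest TG− mouse. The sum of both isozymes was 145 ± 8.67 CPM per kb of merged exons in TG+ and 28.5 ± 0.883 in TG−, a ratio of 5.08.

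**Figure D4:**
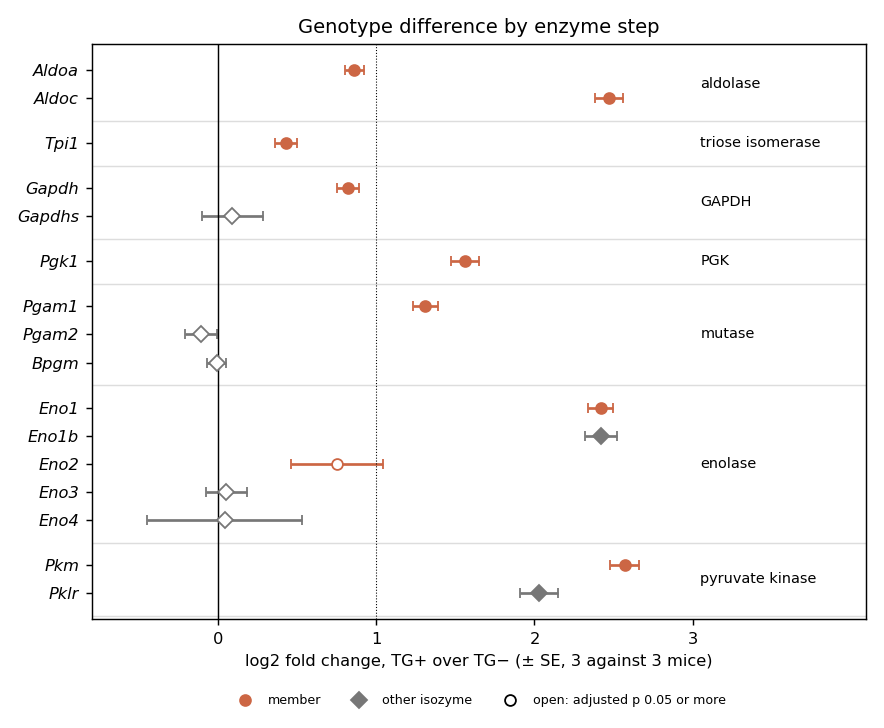
Log2 difference between TG+ and TG− with its SE (horizontal axis) for the members (circles) and the other isozymes of the same steps (diamonds), by enzyme; filled symbols passed an adjusted p of 0.05. Eno1, Aldoc and Pkm lie between 2.42 and 2.57, and Gapdhs, Pgam2, Bpgm, Eno3 and Eno4 lie near 0.

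Of 8 other isozymes, 7 were tested and 2 rose, Eno1b and Pklr, both at the 2-fold threshold, and 0 fell. The level of each enzyme was summed over the isozymes that entered the shares, so without the near-copy Eno1b, which stood above Eno1 per kb, and without Bpgm. By merged exons the ratio of TG+ to TG− was 1.72 for GAPDH, 2.94 for PGK, 1.31 for the mutase, 4.36 for enolase and 5.08 for pyruvate kinase. Tpi1, with a single gene, was 1.35-fold. The ratio did not rise evenly along the pathway, since the mutase lay below its neighbours.

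**Figure D5:**
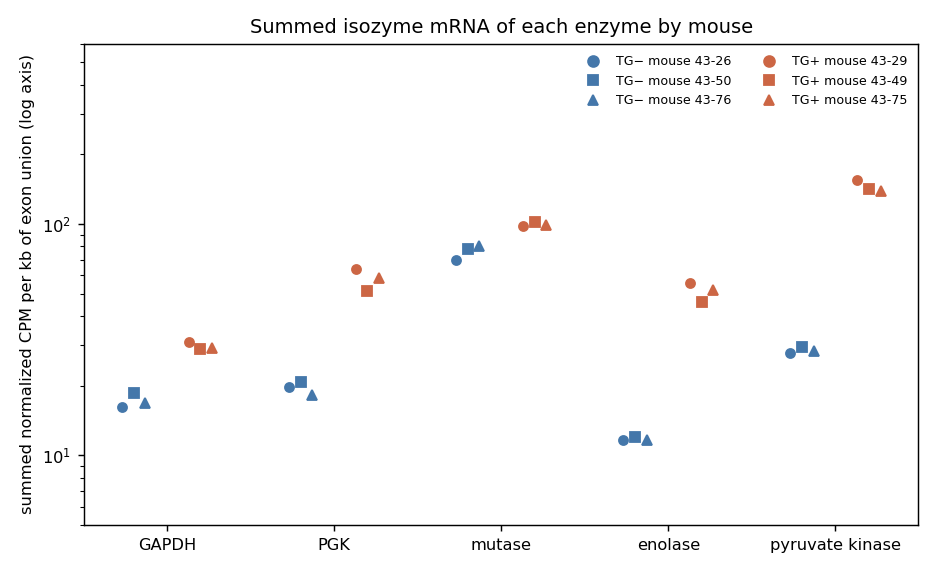
Summed level of the isozymes of each enzyme that entered the shares (without Eno1b and Bpgm) in CPM per kb of merged exons (vertical log axis) in each mouse. In each of the 5 enzymes every TG+ mouse lies above every TG− mouse.

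Levels of the members were ordered per kb of merged exons. In TG− mice Aldoa came first (144 CPM per kb) and Tpi1 second (89.0), followed by Pgk1 (19.6), Pgam1 (18.6), Gapdh (16.3), Pkm (15.4), Eno1 (8.98), Aldoc (1.14) and Eno2 (0.329). The ranges over mice overlapped for Pgk1 and Pgam1 and for Gapdh and Pkm, so those neighbours could not be ordered. In TG+ mice Aldoa (261) and Tpi1 (120) still led, then Pkm (91.1), Pgk1 (57.7), Eno1 (48.0), Pgam1 (46.1), Gapdh (28.6), Aldoc (6.34) and Eno2 (0.555). Pgk1 and Eno1 overlapped, as did Eno1 and Pgam1. By the rows as counted, Pkm thus stood below Pgk1 and Pgam1 in TG− mice and above both in TG+ mice. By the RPKM lengths Tpi1 (46.7) led Aldoa (38.9) in TG−, Pkm (103) led in TG+, and Pkm stood above Pgk1 in both genotypes. The places of Gapdh, Eno1 and Pgk1 also depend on how near-identical rows were counted. For Pgk1 those rows held 20329 reads against 27066 on Pgk1, so its order with Pkm in TG+ mice is not settled.

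The genes around these steps were counted from lists of the pathway. In the upper part (glucose entry to phosphofructokinase, 15 genes) 11 rose, 7 of them at the 2-fold threshold, and 1 fell. The highest was Hk2, the inducible hexokinase (6.16, SE 0.17, adjusted p = 1.87e-06, edgeR), and the lowest Pfkfb1 (-0.25, adjusted p = 0.572, edgeR). The fall was that of Pfkfb2, which did not pass with scaling by library size alone. Among 9 genes of the lactate branch, 8 were tested and 3 rose, Slc16a3, Pdk1 and Ldha, all at the 2-fold threshold, and 0 fell. They ran from 6.52 for the lactate exporter Slc16a3 (adjusted p = 5.46e-06, edgeR) to -0.17 for the pyruvate carrier Mpc1 (adjusted p = 0.414, edgeR). Most genes of the upper part thus moved in the direction of the members, and most of the lactate branch did not pass.

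For the reverse path and fructose entry, 5 of 12 rose and 1 fell, with 0 at the 2-fold threshold. Those that rose were Pck2 and Slc37a4 of the reverse path and Slc2a5, Khk and Tkfc of fructose entry. Counts varied with scaling, as 2 fell with upper-quartile scaling or with DESeq2, and 6 rose with scaling by library size alone. The highest was Pck2, the mitochondrial PEP carboxykinase (0.99, SE 0.09, adjusted p = 2.80e-04, edgeR), and the lowest Fbp2, the muscle fructose bisphosphatase (-0.65, SE 0.08, adjusted p = 9.21e-04, edgeR). In the glycerol branch, which leaves at the triose phosphates, 0 of 4 rose and 2 fell, Gpd1l (-0.47, adjusted p = 0.00178, edgeR) and Gk, and Gk did not pass with libraries scaled by size alone, while Gpd2 rose there and with DESeq2. Of 7 factors known to act on the alternative exon of Pkm, 6 were matched and 1 rose, Nek2 (0.41, adjusted p = 0.0464, edgeR), which did not pass under upper-quartile scaling, and the lowest was Hnrnpa2b1 (-0.10, adjusted p = 0.174, edgeR). Medians of the log2 difference were 0.79 for the upper part, 0.12 for the lactate branch and 0.25 for the reverse path with fructose entry. They were -0.19 for the glycerol branch and 0.01 for the Pkm factors, against 0.01 for all genes.

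Markers of cell types moved with the genotype beside the members. In TG+, 8 of 13 proximal tubule markers fell and 0 rose, with summed levels of 31347 to 35027 CPM against 44802 to 47531 in TG− mice. All 9 endothelial markers rose (826 to 889 CPM against 480 to 627), as did 11 of 16 immune markers (1222 to 1880 against 384 to 447), 7 of 9 stromal (329 to 433 against 208 to 248), 6 of 8 of tubule injury (656 to 787 against 543 to 680) and 4 of 6 of proliferation (15.2 to 27.1 against 9.26 to 12.6). Col3a1 of the stromal list did not pass under upper-quartile scaling, nor Vcam1 of the injury list with DESeq2. Most of the immune sum was Igkc (1002 ± 252 CPM in TG+ and 208 ± 28.5 in TG−) and Jchain (449 ± 131 and 77.4 ± 17.7, SD, n = 3). The median log2 difference of the 16 immune markers was 0.91. Most of the injury sum was Spp1 (650 ± 43.9 CPM in TG+ and 597 ± 66.1 in TG−, SD, n = 3), which did not pass. Of 12 markers of other nephron segments 0 rose or fell (3861 to 5155 CPM against 4150 to 4256), but 4 rose with scaling by library size alone and 1 with DESeq2. Of 7 genes of red cells and platelets, 6 were tested, 3 rose and 1 fell (77.0 to 96.4 CPM against 50.4 to 59.5), and of 5 adipocyte genes 1 of 4 tested rose (29.1 to 64.3 against 21.2 to 28.3). None of the 7 muscle or 7 neuron markers rose or fell, with 2 tested in each. The part of these cells in the members' differences was not tested.

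Over the 12 libraries, the genes outside the members whose level followed them most closely were Il17rb, Plod2, Cpb2, Pygl and Kcnj8. The measure was Pearson's r between log2(CPM + 0.5) of a gene and the mean of the members' standardized values, among 16167 other genes of at least 1 CPM on average, and it was 0.999, 0.998, 0.998, 0.997 and 0.997. The points share mice, depth and genotype, so a gene that differs cleanly between genotypes scores high whatever its function. Plod2, a collagen lysyl hydroxylase, stood at 382 CPM in TG+ and 36.3 in TG− (log2 3.40). Pygl, the liver glycogen phosphorylase, stood at 33.3 and 14.5 CPM (log2 1.20). Within the members r was between 0.978 and 0.998 except for Eno2, at 0.799. By this measure the mean includes the member itself, so these values cannot be set against those of other genes.

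For 8 members both kidneys of every TG+ mouse lay above every TG− kidney, which was so for 13.7% of all genes, and the exception was Eno2. Outside Eno2 the kidneys of a mouse differed by at most 0.25 on the log2 scale, below every genotype difference. For Pkm the 6 TG+ libraries ran from 400 to 507 CPM (median 467) and the 6 TG− libraries from 72.0 to 79.3 (median 76.9). For Tpi1, the member with the smallest log2 difference among those that rose, they ran from 296 to 360 (median 340) and from 240 to 251 (median 244).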

How the data were processed

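RNA was sequenced as 51-bp single-end reads from 12 libraries, 2 kidneys of each of 6 mice. The authors deposited 1 table with the read count of each of 37681 Ensembl genes, unnormalized, and RPKM values scaled by a method called BUQ in the file headers. The study's methods name the Tuxedo tools as the main software and the submitters' processing notes name mm9, while tool versions, the counter of this table, the annotation release and strand handling are not given in the sources used here. The table's log2 RPKM, group means, fold changes, p-values and q-values are the authors' own comparison and were not used, nor were the deposited RPKM values, apart from the gene length they imply.

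Counts of both kidneys were summed per mouse. Genes were kept by filterByExpr, scaled by TMM and tested by the quasi-likelihood test of edgeR 4.0.16 (R 4.3.3), and the SE is the log2 difference over the root of the F statistic. The fit was also run on simulated counts with known changes, drawn with the spread that the fit itself had estimated. That run cannot show how the test does where the spread differs, and its outcome is not given here. The alternatives were DESeq2 1.42.0, no filter, upper-quartile and library-size scaling, each kidney as its own library, kidney 1 or 2 alone, pairs as a block, each mouse left out, and other lengths for shares. Near-identical rows were summed as an alternative chosen after seeing the data. Depth was 48052131 reads or more per mouse, and the coefficient of biological variation between mice of a genotype was 0.114.

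Symbols, positions and exons came from GENCODE M21 (GRCm38), matched by Ensembl identifier for 32642 genes, and promoters from RefSeq (GRCm38.p6). The members and lists (upper glycolysis, lactate branch, reverse path and fructose entry, glycerol branch, Pkm factors and cell type markers) were chosen with earlier results of these data known. Genes named are the members, their isozymes, the highest and lowest of each pathway list and the 5 most alike in level. Other list genes were named after their values were seen. Rbm4 was not matched. Isozyme shares of aldolase are not reported here. Python 3.11.15 with pandas 2.3.3, scipy 1.17.1 and numpy 2.4.6 made the summaries, and matplotlib 3.10.9 the plots.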

Additional observations from a re-analysis of the deposited data

How the results depend on the processing

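The number of members higher at the 2-fold threshold was 5 in all 15 alternatives, and the number that rose was 8 or 9. The ninth was Eno2, called with mouse 43-26 left out (1.14) and with each kidney as its own library (0.76), which treats the 2 kidneys of a mouse as independent. It was also called with a block for the pairs that the table's name lists (0.79, adjusted p = 0.0176, edgeR). In each of those pairs the TG+ mouse had the higher Eno2 level. Those pairs gave correlations of deviations of 0.39, 0.33 and -0.07, and in 2 of the 3 pairs each mouse matched its partner best. The study calls the TG− mice littermates, but the labels do not say which mice shared a litter or batch. Since 1 pair also did not correlate, the pairs were not used in the main design. Whether they mark a shared origin cannot be told. The replicate block gave 779 higher and 46 lower genes at the 2-fold threshold and changed no other member's call. The median of the members ran from 1.26 to 1.43, the latter with libraries scaled by size alone, which moved the median of all genes from 0.01 to 0.13.

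Of all genes, 732 were higher and 41 lower at the 2-fold threshold, and 2982 and 2105 at an adjusted p of 0.05. Scaling by library size alone gave 22 lower at the 2-fold threshold and a split of 4511 higher to 947 lower at an adjusted p of 0.05, and each kidney as its own library gave 4476 and 3812. With single mice left out, the 4 counts ran from 469 to 633, 29 to 50, 1985 to 2757 and 1199 to 2023, and the fall was past 1.5 times without mouse 43-76 for higher genes at either threshold (469 and 1985) and for genes lower at an adjusted p of 0.05 (1199), and without 43-50 for the latter (1262).

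Shares depended on the length used. Without length correction the Eno1 difference was 8.13 points (by merged exons 17.5, and 4.24 with near-identical rows added). With single mice left out the Eno1 difference ran from 10.8 to 12.4, Pgam1 from 20.5 to 25.2 and Pkm from 4.93 to 8.61.

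Isozymes near 0 changed sign without being called. Gapdhs was at -0.00640 in kidney 2 alone, -0.04 without 43-49 and -0.02 without 43-76, and at most 0.20 with single mice left out (0.21 scaled by library size alone). Pgam2 was at 0.02 and Bpgm at 0.11 with libraries scaled by size alone, and Bpgm was at 0.01 in kidney 2 alone, 0.02 without 43-49 and 0.03 without 43-50. Eno3 was at -0.02 in kidney 2 alone, -0.05 without 43-29 and -0.01 without 43-50, and at most 0.12 with single mice left out (0.17 scaled by library size alone). Eno4 was at -0.40 without 43-49, -0.06 without 43-75, -0.02 without 43-26 and -0.10 without 43-50, up to 0.42 without 43-29, and was not tested in 3 alternatives. The causes were not tested.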
